A study of Rattus norvegicus with 6 samples.

Results

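The 5 genes described here are markers of the contractile and mesenchymal state: Acta2, Tagln and Cnn1 from the contractile apparatus of smooth muscle, and Vim and Cdh2 from the mesenchymal cytoskeleton and its junctions. They were taken by Ensembl identifier from a table of 32879 rows, of which 12852 held enough counts to test. Rows were found for 4 of the 5, and all 4 were tested. The gene symbols come from the definition of the group, since the table carries identifiers only. No row of the table used here carries the Cnn1 identifier, ENSRNOG00000027036, and Cnn1, which encodes the actin-binding protein calponin, is not analysed here.

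The cells were primary endothelial cells from the abdominal aorta of the rat (Rattus norvegicus), cultured on fibronectin, with 3 libraries labelled wild type (WT) and 3 whose genotype is given as a miR-337-3p knockdown (KD) and whose titles read KO. No strain, age or number of animals is given, and nothing says whether the 3 libraries of a group came from separate cultures. The p-values thus set the group difference against a spread between libraries that may be technical. In edgeR that spread is moderated over all tested rows. The protocol field of all 6 libraries names the same agent, an inhibitor of the human microRNA (hsa-miR-337-3p) transfected at 100 nM, while the series text speaks of cells without the microRNA. The treatment of the WT cells thus stays unclear, and the groups were used as labelled. Whether the cultures were purely endothelial could not be checked, because endothelial, smooth muscle, fibroblast, pericyte and leukocyte markers could not be matched to identifiers.

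Endothelial cells line the vessel, and in the process called endothelial to mesenchymal transition they lose junctional and identity genes and gain contractile and mesenchymal ones. Acta2 and Tagln are textbook readouts of that process and of smooth muscle itself. Their transcription is driven by serum response factor, which binds a DNA element named the CArG box, together with its myocardin-family cofactors. Vim is present in endothelial cells as well as in mesenchymal cells, and Cdh2 encodes N-cadherin, which endothelial cells also carry alongside VE-cadherin.

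The microRNA that defines the groups is shown because the labels name it as the target of the knockdown. The inhibitor is named for the human microRNA, whose sequence was not compared with the rat one. A microRNA pairs with messenger RNAs mainly through its seed, bases 2 to 8 from the 5′ end, given in capitals. The rat sequence is from RefSeq (GRCr8, chr6:134321201-134321223, plus strand), and none of the other mature rat microRNAs in that table, 724 entries in all, has the same seed.
rno-miR-337-3p: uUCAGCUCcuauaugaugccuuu
No target site for it was sought in the 5 genes, as no messenger RNA sequence was used here.

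The Acta2 promoter is shown because Acta2 was 1 of the 2 genes that fell. Its window of 300 bases around the transcription start (RefSeq, GRCr8, chr1:241172454-241172753, minus strand, printed 5′ to 3′ along the gene) holds 2 CArG-like stretches, in capitals, each 1 base away from the CArG box in its A/T core.
Acta2 promoter: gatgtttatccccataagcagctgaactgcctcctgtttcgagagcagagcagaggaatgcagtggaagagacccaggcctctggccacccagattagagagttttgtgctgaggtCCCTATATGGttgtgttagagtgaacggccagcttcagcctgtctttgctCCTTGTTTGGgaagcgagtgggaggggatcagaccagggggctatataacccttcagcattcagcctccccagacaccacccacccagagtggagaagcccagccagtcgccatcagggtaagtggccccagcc
The first stretch begins 134 bases and the second 84 bases before the annotated start. The search covered both strands, on which this palindromic element reads alike. At least 1 stretch with at most 1 such core base off occurred in 9.42% of the 33469 promoter windows in the table. An exact CArG box occurred in 1.64%. The share of windows with 2 stretches of the looser kind, as in Acta2, was not counted. Of the 5 genes 3 had an entry in the promoter table, namely Acta2, Cnn1 and Vim. The windows of Cnn1, a contractile gene, and of Vim each held 0 exact CArG boxes and 0 stretches with 1 core base off. Cnn1 had no row to set beside its window, and whether the matches bear on the fall of Acta2 was not tested. Tagln and Cdh2 could not be searched, and sequence outside the windows was not.

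The KD libraries held less contractile gene RNA and slightly more Vim RNA than the WT libraries. Of the 4 genes tested, Acta2 and Tagln fell, Vim rose, and Cdh2 did not pass the test. Over all 12852 tested rows 21.2% passed the same threshold, 10.3% as falls and 11.0% as rises (edgeR, adjusted p below 0.05). The log2 fold changes were -1.43 for Tagln, -1.31 for Acta2, 0.30 for Vim and 0.32 for Cdh2. Their median, -0.51, lay in the gap between the falls and the positive estimates, near no gene, and does not describe the group. Over all tested rows the median was -0.003.

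Acta2 encodes smooth muscle alpha-actin (ENSRNOG00000058039), the actin isoform of contractile filaments. Its CPM, the counts per 1000000 counts of the library, were 71.7, 79.4 and 52.0 in WT replicates 1 to 3. In KD replicates 1 to 3 they were 28.8, 30.5 and 19.8. All KD values lay below the lowest WT value, as they did for 20.5% of all tested rows. The mean went from 67.7 ± 14.2 CPM to 26.4 ± 5.71 CPM (SD, n = 3 each), so that it fell by 61.1%. The fitted log2 fold change was -1.31, with a standard error of 0.15 and an adjusted p of 4.76e-07 (edgeR). A fall of that size that also passed the threshold was seen in 1.81% of all tested rows. The gene was counted 365, 409 and 280 times in the WT libraries and 145, 161 and 102 times in the KD libraries. Counting error alone gives a coefficient of variation of 5.33% in WT and 8.58% in KD, against an observed 20.9% and 21.7%. Such counting error is a lower limit, since the cDNA was amplified and no molecular identifiers are described. In bulk RNA, fewer contractile cells in a culture and less Acta2 RNA per cell cannot be told apart. The part that smooth muscle cells in the cultures may have in this result was not tested.

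Tagln (ENSRNOG00000017628) encodes transgelin, also called SM22 alpha, a protein that binds and bundles actin filaments in smooth muscle. Its level was 895, 996 and 786 CPM in WT replicates 1 to 3 and 357, 333 and 274 CPM in KD replicates 1 to 3. The groups were far apart, with 357 CPM in the highest KD library against 786 CPM in the lowest WT library. The mean went from 892 ± 105 CPM to 321 ± 42.7 CPM (SD, n = 3 each), so that it fell by 64.0%. The fitted log2 fold change was -1.43 ± 0.10 (SE), at an adjusted p of 1.74e-10 (edgeR), and 1.53% of all tested rows passed with a fall at least as large. With 1409 to 5126 counts per library this was a deeply counted gene. Its coefficient of variation from counting error alone would be 1.47% in WT and 2.46% in KD, against 11.7% and 13.3% observed.

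**Figure D1:**
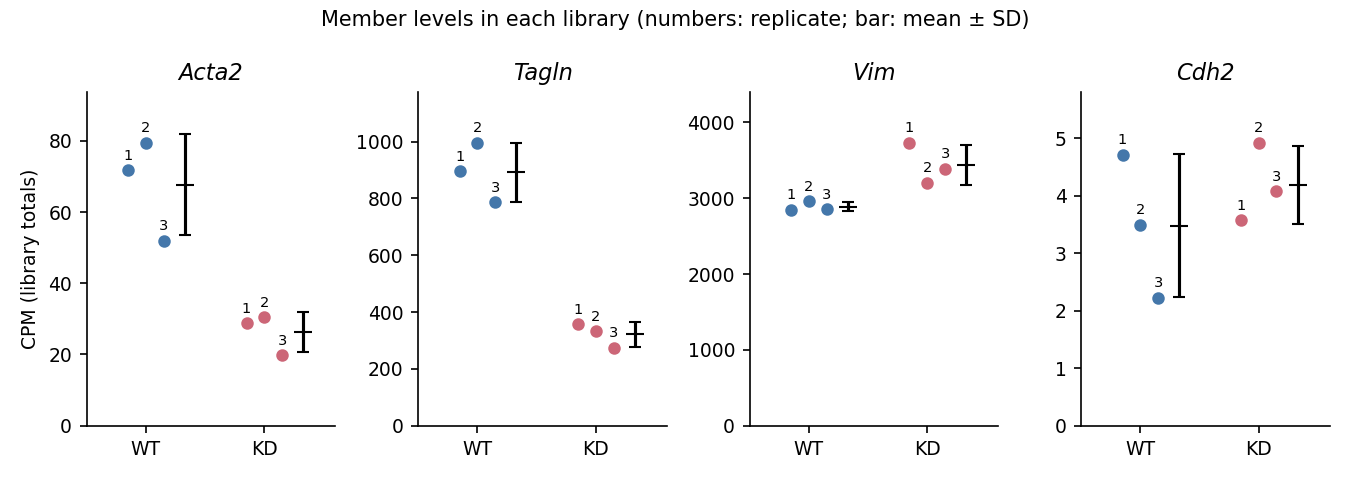
Level of each tested gene in CPM (vertical axes, each from 0) in the 3 WT (blue) and 3 KD (red) libraries, numbered by replicate, with the group mean ± SD in black. Acta2 and Tagln were lower in all KD libraries than in any WT library, Vim was higher in all of them, and the Cdh2 values overlapped.

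Among libraries of the same group, Acta2 and Tagln had the same order in WT and a partly shared order in KD, which was not tested. WT replicate 2 held the most and WT replicate 3 the least of both genes among the WT libraries, and KD replicate 3 the least of both among the KD libraries. The 2 genes differed in KD replicates 1 and 2, where Acta2 was higher in replicate 2 and Tagln in replicate 1. To measure likeness, the log2(CPM + 1) of each row was centred on its mean over the 6 libraries and the root mean square difference between rows was taken. It was 0.146 between Acta2 and Tagln. None of 7428 other Ensembl rows with a mean of at least 10 CPM lay closer to Acta2 than Tagln did, while 10 of them lay closer to Tagln than Acta2 did. These distances are descriptions over 6 libraries that share the group difference.

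The ratio of the 2 genes within a library does not depend on how libraries are scaled. Its own level reflects gene length as well, so only its change between groups is read. The log2 ratio of Tagln to Acta2 counts, with 0.5 added to each count, was 3.73 ± 0.16 for WT and 3.62 ± 0.17 for KD (SD over 3 libraries each). The difference of -0.12 lay within the SD of either group (exact two-sided permutation p = 0.4, and 0.6 after adjustment over 3 ratios). With 3 libraries against 3 that test cannot go below 0.1. The planned ratio of Cnn1 to Acta2 could not be formed.

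**Figure D2:**
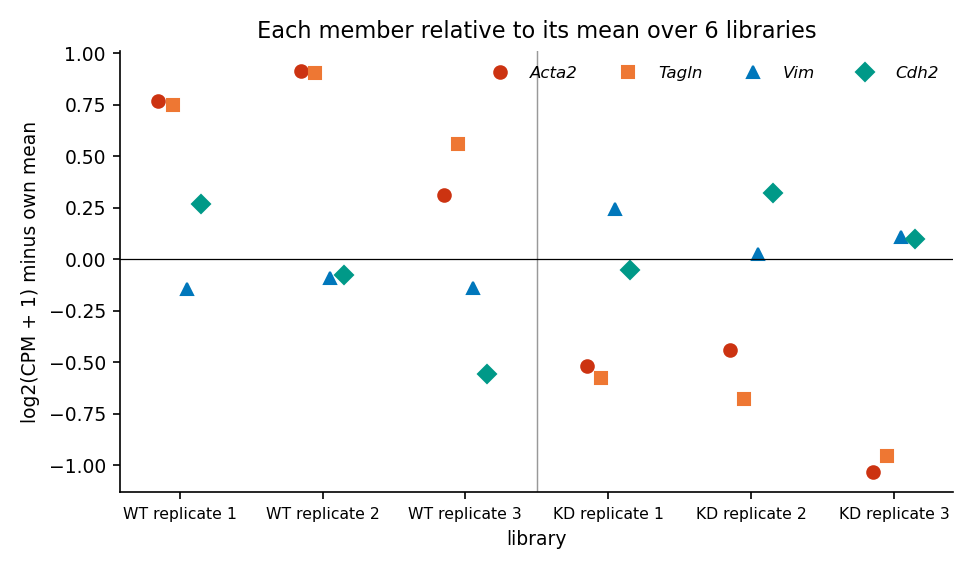
log2(CPM + 1) of each tested gene minus its own mean over the 6 libraries (vertical axis), by library, with WT replicates left and KD replicates right of the line. Acta2 and Tagln lie between 0.31 and 0.91 in WT and between -1.03 and -0.44 in KD libraries, while Vim stays between -0.15 and 0.24.

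The rows most like each gene can be given by identifier only. The row nearest Acta2 apart from Tagln was ENSRNOG00000000875, at a root mean square difference of 0.163. It fell from a mean of 46.6 CPM in WT to 21.7 CPM in KD libraries (log2 fold change -1.05, adjusted p = 2.08e-06 by edgeR). The row nearest Tagln was ENSRNOG00000037275, at 0.080, which fell from 20.4 to 6.41 CPM (log2 fold change -1.62, adjusted p = 1.19e-07 by edgeR). Both rows were picked for likeness over the same libraries, the group difference included, so their falls and p-values follow from that choice. Nothing in the table says what these rows encode.

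Vim (ENSRNOG00000018087) encodes vimentin, the type III intermediate filament of mesenchymal and endothelial cells. Its level was 2847, 2960 and 2857 CPM in WT replicates 1 to 3 and 3730, 3206 and 3387 CPM in KD replicates 1 to 3. The KD libraries all lay above the WT libraries, as they did for 14.9% of all tested rows. The distance between the groups was small, with 3206 CPM in the lowest KD library against 2960 in the highest WT library. The mean went from 2888 ± 62.5 CPM to 3441 ± 266 CPM (SD, n = 3 each), which is 19.2% higher. The fitted log2 fold change was 0.30 ± 0.08 (SE), at an adjusted p of 0.00943 (edgeR), a fitted change of 1.23-fold with an approximate 95% interval of 1.10 to 1.38. Of all tested rows 18.6% had a higher log2 fold change. The call was lost without WT replicate 1 (log2 fold change 0.27, edgeR adjusted p = 0.0657) and without WT replicate 2 (log2 fold change 0.31, adjusted p = 0.0545). At 14492 to 18791 counts per library, counting error alone gives a coefficient of variation of 0.815% in WT and 0.751% in KD, against 2.16% and 7.74% observed.

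Vim had a larger SD in the KD than in the WT libraries, a difference that was not tested, and KD replicate 1 was the highest. The row nearest Vim in pattern was ENSRNOG00000007663, at a root mean square difference of 0.024. This row was picked for its likeness to Vim over the same libraries, so its peak, rise and lost calls follow from that choice. In KD replicate 1 it held 2995 CPM, against 2588 and 2619 in the other 2 KD libraries. It lay at 2296, 2346 and 2326 CPM in the WT libraries and rose by 0.28 on the log2 scale (adjusted p = 0.0144 by edgeR), a call lost without WT replicate 1 and without WT replicate 2 (adjusted p = 0.083 in each).

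Cdh2 (ENSRNOG00000015602) encodes N-cadherin, an adhesion protein that links neighbouring cells through catenins to actin. It was close to the limit of what could be tested, with 24, 18 and 12 counts in WT replicates 1 to 3 and 18, 26 and 21 counts in KD replicates 1 to 3. These are 4.72, 3.50 and 2.23 CPM in WT and 3.57, 4.92 and 4.08 CPM in KD libraries. The groups overlapped: the highest library was a KD library and the next highest a WT library. The mean was 3.48 ± 1.24 CPM in WT and 4.19 ± 0.68 CPM in KD libraries (SD, n = 3 each). The log2 fold change of 0.32 did not pass the test (standard error 0.29, edgeR adjusted p = 0.494). Its approximate 95% interval ran from 0.82-fold to 1.91-fold, so a rise of up to that size was not excluded, and a fall of the size seen in Acta2, 0.40-fold, lay outside the interval. Without WT replicate 3, the library with 12 counts, the log2 fold change was 0.10, and without WT replicate 1 it was 0.58. Counting error alone gives a coefficient of variation of 23.6% in WT and 21.5% in KD libraries, against 35.7% and 16.2% observed. The row nearest Cdh2 in pattern, picked for that likeness, was ENSRNOG00000026248, at a root mean square difference of 0.085. That row did not pass the test either (log2 fold change 0.32, edgeR adjusted p = 0.101).

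**Figure D3:**
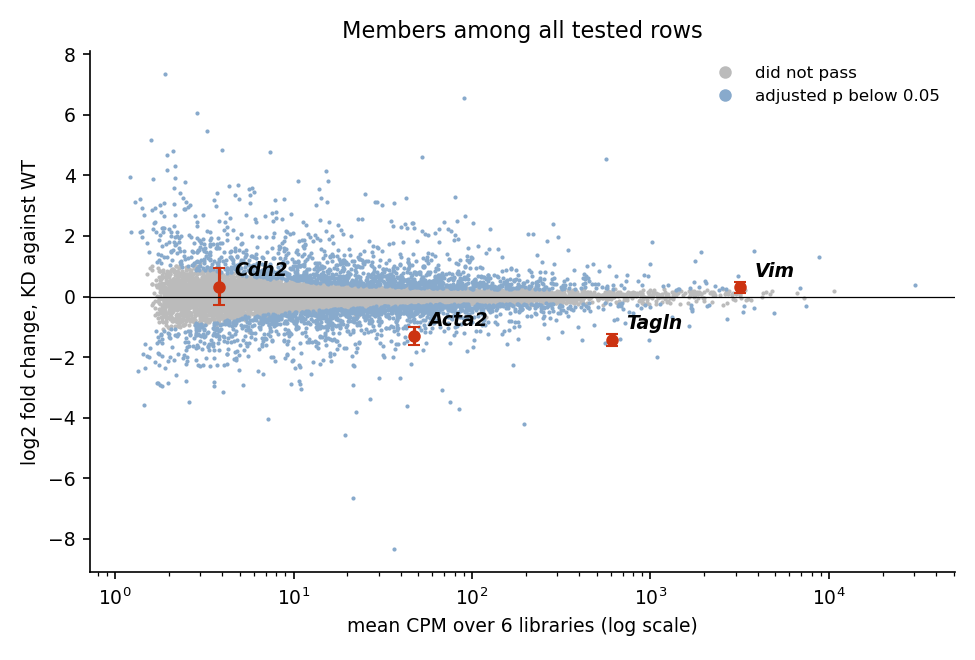
log2 fold change of KD against WT (vertical axis) by mean CPM over the 6 libraries (horizontal axis, log scale) for all 12852 tested rows, blue where the adjusted p was below 0.05, with the 4 genes in red and their approximate 95% intervals. Acta2 and Tagln lie at -1.31 and -1.43, below the main band of rows, whereas Vim at 0.30 and Cdh2 at 0.32 have like estimates with narrow and wide intervals.

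Vim and Cdh2 had nearly the same estimate, and only the better counted of them passed, which does not show that they differed. The log2 ratio of Cdh2 to Vim counts was -9.72 ± 0.53 for WT and -9.66 ± 0.33 for KD (SD over 3 libraries each), a difference of 0.06 (exact two-sided permutation p = 0.9, and 0.9 after adjustment). Its sign turned without WT replicate 3 (-0.21) and without KD replicate 2 (-0.11). The contractile gene Acta2 was set against Vim in the same way. The log2 ratio of Acta2 to Vim counts was -5.31, -5.22 and -5.78 in WT replicates 1 to 3. In KD replicates 1 to 3 it was -7.01, -6.71 and -7.41, below all WT libraries. The difference of -1.61 was several times the SD of 0.30 in WT and 0.35 in KD libraries (exact two-sided permutation p = 0.1, the smallest possible, and 0.3 after adjustment).

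The falls of Acta2 and Tagln passed the threshold again in each of 17 alternative analyses, with log2 fold changes of -1.46 to -1.15 for Acta2 and -1.50 to -1.33 for Tagln. Vim kept its direction in all 17 and missed the threshold in the 2 named above. It passed narrowly without KD replicate 3 (edgeR adjusted p = 0.0495) and at the stricter threshold of 0.01 (edgeR adjusted p = 0.00943). Cdh2 did not pass in any of the 16 alternatives in which it was tested.

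**Figure D4:**
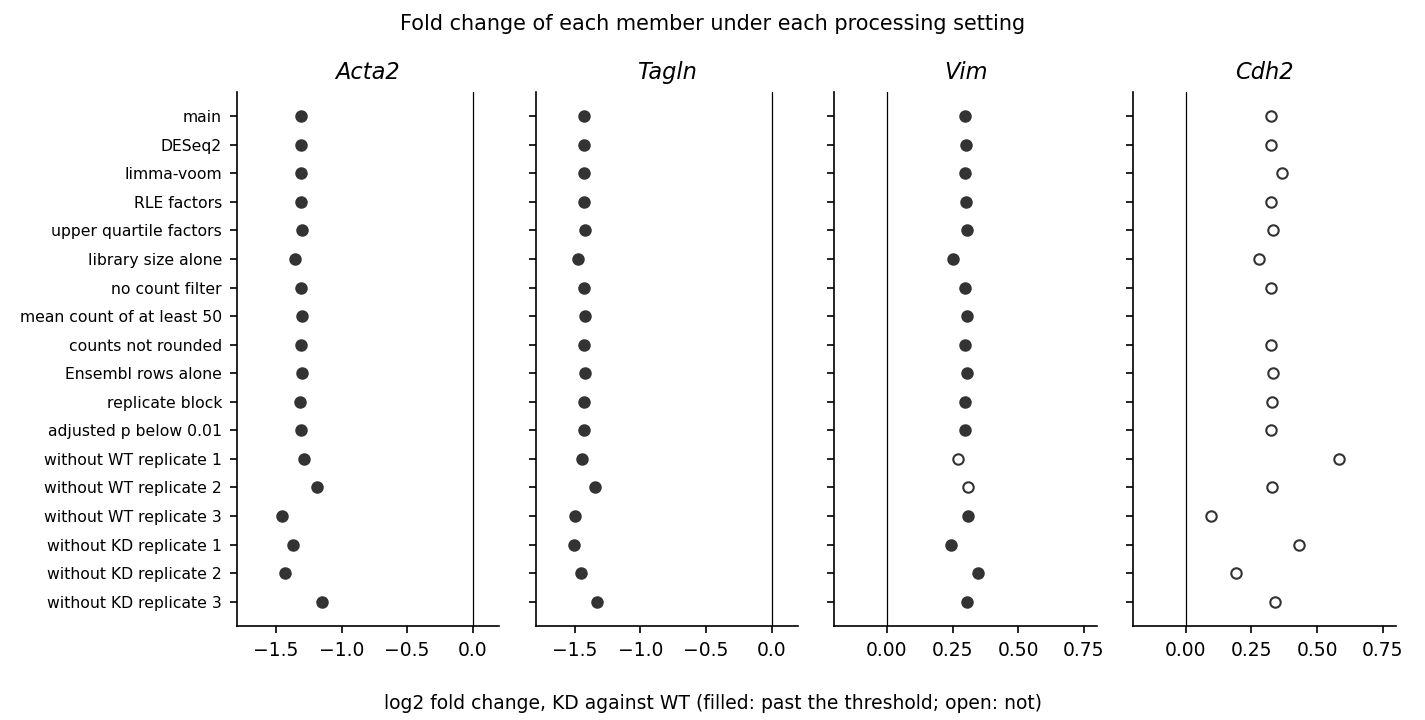
log2 fold change of KD against WT (horizontal axes) for each tested gene under the analysis reported ("main") and each alternative (vertical axis), filled where the threshold was passed. Acta2 and Tagln stay below -1.1 and filled throughout, Vim lies between 0.24 and 0.35 with 2 open points, and Cdh2 is open throughout, between 0.10 and 0.58.

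The depth of the libraries was even, between 5037127 and 5385434 total estimated counts. The scaling factors (TMM) ran from 0.992 to 1.03 in WT and from 0.973 to 0.991 in KD libraries. All KD factors thus lay below all WT factors, and the CPM values and the shares of separated rows do not include them. Some counts are fractional, as arises where a counter divides a read among rows: 4 of the 6 Acta2 values, 6 of the Tagln values, 5 of the Vim values and 0 of the Cdh2 values were not whole numbers, judged on the printed values with a tolerance of 0. Acta2 has close paralogs among the other muscle actins, and an exchange of reads between their rows could not be followed here.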

How the data were processed

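The values deposited by the authors are estimated counts, without normalization, for each gene in 6 libraries of rat aortic endothelial cells, and 21.6% of its values are not whole numbers (tolerance 0). Full-length cDNA was amplified with few PCR cycles, per the labels' protocols, and the genome build was mRatBN7.2, per the submitters' processing notes. For the aligner, the counter and the use of strand, the tool is not given in the sources read here. After rounding, all 12852 rows that passed filterByExpr entered 1 quasi-likelihood fit with TMM factors and group as the sole term (edgeR 4.0.16, R 4.3.3), and p-values were adjusted over these rows by Benjamini-Hochberg, with a threshold of 0.05. Standard errors are the log2 fold change over the square root of F, and the 95% intervals built on them are approximate. CPM use library totals without TMM factors. Ratios between genes were compared by exact permutation over 20 arrangements. The edgeR, DESeq2 and limma-voom fits were tested on simulated counts, and the other steps were not. The fit was repeated with limma-voom (limma 3.58.1), DESeq2 1.42.0, other scalings and filters, unrounded counts, Ensembl rows alone, a replicate block, an adjusted p of 0.01 and leaving out each library. The named genes were the 5 members and, for each tested member, the Ensembl row nearest in pattern, with at most 2 risen and 2 fallen identifiers printed. The members, lists and tests were chosen with earlier results of these data known. A further 7 gene lists (contractile, mesenchymal, endothelial, other cell types, cadherins, filament partners) were not run, because the RefSeq table (GRCr8) pairs 0 rows with an Ensembl identifier.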

Additional observations from a re-analysis of the deposited data

How the results depend on the processing

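The number of rows past the threshold, 2730, stayed within 1.5 times its value in all alternatives, from 1820 at an adjusted p of 0.01 to 2925 with no count filter and 2960 with the replicate block. DESeq2 called 892 falls against 1321, and the stricter adjusted p left 824. With library size alone 1234 rows rose and 1633 fell, against 1409 and 1321, and the median of all rows' log2 fold changes was -0.05. With each library left out the count was 1988 to 2759, and 2 to 3 of the 4 genes passed. In those fits Vim ranged from 0.24 to 0.35 (highest edgeR adjusted p = 0.0657), Cdh2 from 0.10 to 0.58, and the Cdh2 to Vim ratio from -0.21 to 0.32, its sign turning without WT replicate 3 or KD replicate 2, the cause not tested. With a mean count of at least 50 Cdh2 was not tested. The labels do not say what a shared replicate number means, so the numbers were not taken as pairs. Same-numbered WT and KD libraries did not deviate together (correlations across rows of -0.017, 0.003 and 0.041). With the replicate block the log2 fold changes were -1.31 for Acta2, -1.43 for Tagln, 0.30 for Vim and 0.33 for Cdh2, and no call among the 4 genes changed. The correlation of 0.041 between WT replicate 3 and KD replicate 3 was the highest. WT replicate 1 with KD replicate 2 gave 0.034, and the lowest was -0.033, for WT replicate 3 with KD replicate 2. No link between libraries is read from values so near each other.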
